A study of Mus musculus with 13 samples.

Results

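Kinesins and centromere proteins were taken as every row of the gene count table whose symbol starts with Kif and a digit or with Cenp and a letter, which gave 59 of 24421 genes, 40 named Kif and 19 named Cenp. By their known roles they were sorted into 12 mitotic kinesins, 15 centromere proteins (CENPs), 13 transport kinesins, 5 cilia kinesins and 14 remaining members. The kinesin-7 Cenpe was counted with the mitotic kinesins. RNA-seq libraries came from FVB/N-TgN mice of line 202Mul/J carrying MMTV-HER2/neu, with the genotype label Wild type in every group. In this line the mouse mammary tumor virus promoter drives a rat HER2/Neu transgene in the breast epithelium, and tumors arise spontaneously. The 5 groups were mammary glands (n = 2), untreated primary tumors (n = 3), primary tumors of mice on stavudine (STV, n = 3), recurrent tumors that regrew under 17-DMAG (n = 3) and recurrent tumors that regrew under 17-DMAG with STV (n = 2). STV is a nucleoside inhibitor of reverse transcriptase and was given in drinking water at 1 mg/mL, estimated at 200 mg/kg per day, either from 2 months of age or once tumors were present. 17-DMAG is an inhibitor of the chaperone HSP90 and was injected intraperitoneally at 20 mg/kg, 3 times a week. That all animals carried the transgene, glands included, is taken from the strain and not from the genotype label. Ages at collection were not analysed here. The labels number each tumor as a replicate without naming animals, so p-values measure the spread between these libraries. The comparisons ask how these genes stood in tumors against glands, in recurrent against primary tumors, and with STV against without it.

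Kinesins are motors that walk along microtubules or take them apart at their ends. In dividing cells mitotic kinesins build the spindle, move chromosomes and complete cytokinesis, and CENPs form the centromere and the inner kinetochore onto which spindle fibers attach. In cells that do not divide, transport kinesins carry vesicles, organelles and mRNA, and most of these are made all the time, whereas many mitotic genes are transcribed late in the cell cycle. That timing is set in part by promoter elements, among them the cell cycle genes homology region (CHR) near the transcription start and CCAAT boxes upstream of it, which bind the MuvB complexes and NF-Y respectively. Because the same name covers both kinds of motor, the transport kinesins served as an inner control for the mitotic ones.

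The promoters differ between the classes in these letters. RefSeq promoters (GRCm38.p6, 250 bases before to 50 bases after the annotated start) were matched to 51 of the 59 members by symbol, and those of Kif13b, Kif19a, Kif1bp, Kif20a, Kif21b, Kif4-ps, Kif5a and Kif5b were not in the table. The letters TTTGAA (CHR), read on both strands, stood in 9 of 11 mitotic kinesins (81.8%), 5 of 15 CENPs (33.3%) and 1 of 10 transport kinesins (10%), against 20.2% of all 27025 genes. Within 30 bases of the start, a window set after the positions were seen, they stood in 7 of 11 mitotic kinesins (63.6%), 4 of 15 CENPs (26.7%) and 0 of 10 transport kinesins, against 3.72% of all genes. The CCAAT letters were read on either strand, with no rule against sharing bases with the CHR. They stood in 63.6% of mitotic kinesins, 80% of CENPs and 30% of transport kinesins, against 41.1% of all genes. Both together stood in 54.5%, 33.3% and 0% of these classes, against 7.97% of all genes. A match is a description of letters in a window and not a shown binding site. The E2F letters TTTGGCGC or TTTCGCGC were in 18.2% of mitotic kinesins, 6.67% of CENPs and 0% of transport kinesins, against 0.929% of all genes.

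The stretches below run 5′ to 3′ on the gene's strand, from 110 bases before the start through the first 25 bases of the gene, with the letters of the CHR and of the CCAAT box, on either strand, in capitals. Kif11, Kif18b, Cenpf and Cenpa are shown because their levels carry the differences between tumor groups described further on and each holds both elements. Kif22 also holds both, but its levels overlapped between primary STV tumors and recurrent tumors under 17-DMAG with STV. Kif1c and Kif13a are shown as transport kinesins that hold neither. Letters and levels did not always go together. Cenpe, Kif18a, Cenpi and Cenpq carry the differences between tumor groups too, without the CHR letters in their promoters. Kif26b holds both elements but stood higher, not lower, in recurrent tumors under 17-DMAG with STV than in primary STV tumors. Whether the letters bear on the levels was not tested.
Kif11 (chr19:37376272-37376406, + strand): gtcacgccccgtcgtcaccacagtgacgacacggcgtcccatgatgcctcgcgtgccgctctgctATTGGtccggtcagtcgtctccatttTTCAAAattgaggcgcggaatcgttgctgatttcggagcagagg
Kif18b (chr11:102925100-102925234, − strand): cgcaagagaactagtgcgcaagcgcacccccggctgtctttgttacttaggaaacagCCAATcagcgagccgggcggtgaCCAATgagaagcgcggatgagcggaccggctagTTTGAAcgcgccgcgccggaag
Kif22 (chr7:127042396-127042530, − strand): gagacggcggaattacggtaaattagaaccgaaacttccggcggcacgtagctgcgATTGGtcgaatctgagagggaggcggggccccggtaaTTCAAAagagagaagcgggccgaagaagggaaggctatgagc
Cenpf (chr1:189688062-189688196, − strand): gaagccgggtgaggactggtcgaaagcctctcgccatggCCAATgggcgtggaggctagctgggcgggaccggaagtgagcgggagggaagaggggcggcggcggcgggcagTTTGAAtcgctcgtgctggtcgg
Cenpa (chr5:30666776-30666910, + strand): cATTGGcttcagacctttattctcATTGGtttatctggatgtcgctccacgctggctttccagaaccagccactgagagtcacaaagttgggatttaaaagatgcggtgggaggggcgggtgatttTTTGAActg
Kif1c (chr11:70700438-70700572, + strand): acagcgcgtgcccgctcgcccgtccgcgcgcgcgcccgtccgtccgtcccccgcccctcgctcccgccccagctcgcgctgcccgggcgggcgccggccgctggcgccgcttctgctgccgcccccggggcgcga
Kif13a (chr13:46929694-46929828, − strand): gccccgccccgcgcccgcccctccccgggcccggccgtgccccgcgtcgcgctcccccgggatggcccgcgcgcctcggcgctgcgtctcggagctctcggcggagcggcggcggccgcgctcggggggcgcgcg
In the first 5, the CHR letters begin at −19 in Kif11, −17 in Kif22, 2 in Cenpf, 3 in Kif18b and 16 in Cenpa, counted in bases with the annotated start as 0. Neither Kif20a, a mitotic kinesin, nor Kif5b, a transport kinesin, had an entry to set beside them.

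In GRCm38, as annotated by GENCODE vM21, Kif11 lies on chromosome 19 (37376403 to 37421859, + strand), Kif18b on chromosome 11 (102905529 to 102925124, − strand) and Kif23 on chromosome 9 (61915905 to 61946774, − strand). Kif2c lies on chromosome 4 (117159639 to 117182639, − strand), Cenpe on chromosome 3 (135212537 to 135273611, + strand), Cenpa on chromosome 5 (30666777 to 30674830, + strand) and Cenpf on chromosome 1 (189640606 to 189688086, − strand). Kif21b and Kif14 both lie on chromosome 1, at 136131389 to 136177998 and 136466343 to 136531511 on the + strand. Counts were summed over exons, so each value stands for the whole set of exons of its gene and not for an isoform.

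Libraries held 39921388 to 56887708 counted reads, and the members took from 0.1% (95% Wilson interval 0.09931 to 0.101) to 0.263% (0.2613 to 0.2644) of each, intervals that cover counting error only. Levels are given as CPM, counts scaled to a common library size, after TMM scaling. The scaling factor was 0.999 to 1.12 in 12 libraries and 0.493 in mammary gland 2, where 5 milk protein genes summed to 537000 CPM against 21100 in gland 1, so the gland group held 2 unlike libraries. Skeletal muscle markers summed to 1330 CPM in recurrent DMAG+STV tumor 2, 810 in untreated primary tumor 1, 402 in recurrent DMAG tumor 3, 135 in primary STV tumor 2 and 12.3 or less in the other tumors. Luminal epithelial markers, all 5 detected in every library, summed to 1240 CPM in recurrent DMAG+STV tumor 2 and 2040 to 2660 in the other tumors. Of the 59 members, 54 passed the filter on low counts and were tested. The other 5 (Kif2b, Kif4-ps, Kif6, Kif12 and Kif16bos) stayed at or below 0.707 CPM in every library. A count of 0 there allows up to 0.0587 to 0.107 CPM, depending on the library, for counting error only.

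**Figure D1:**
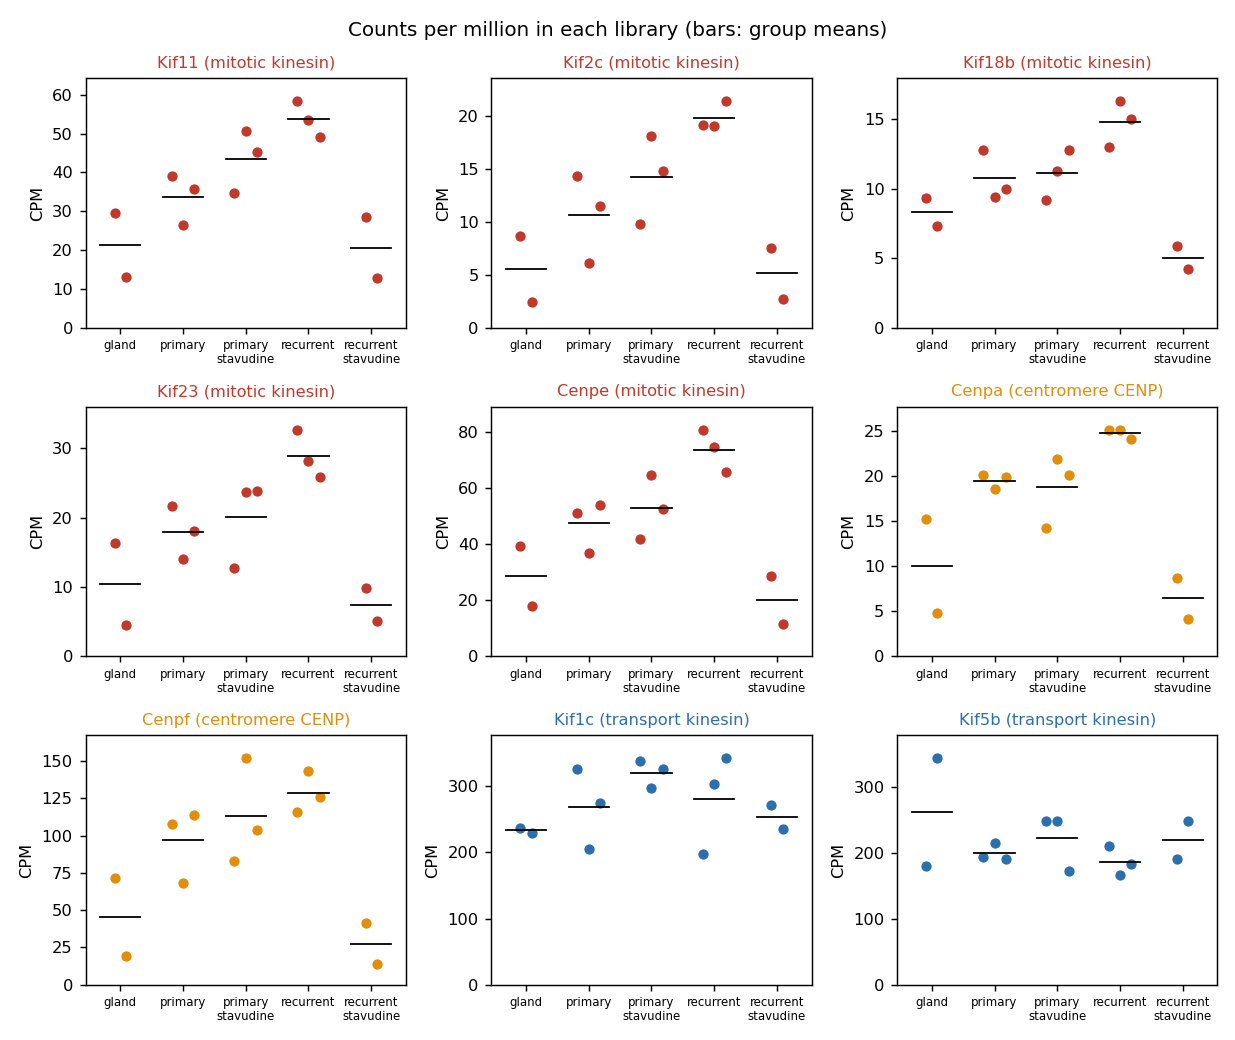
CPM of 9 members in every library by group, for 5 mitotic kinesins (red), 2 CENPs (orange) and 2 transport kinesins (blue), with group means as bars and each axis starting at 0. By group mean, the mitotic kinesins and both CENPs are lowest among tumors in the recurrent DMAG+STV group. Kif11 stands at 28.4 and 12.8 there against 49.1 to 58.4 in the recurrent DMAG tumors, and Kif1c and Kif5b of these groups overlap. Untreated primary tumor 2 lies below recurrent DMAG+STV tumor 1 in Kif11 (26.5) and Kif2c (6.07 against 7.55).

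Across the 11 tumors the mitotic kinesins varied together from library to library, and the transport kinesins varied otherwise. All 12 mitotic kinesins had their lowest tumor level in recurrent DMAG+STV tumor 2, and 11 had their highest in a recurrent DMAG tumor, the exception being Kif20b in primary STV tumor 2. Their highest level was 3.59 to 7.95 times the lowest, with a median of 4.31. The same ratio had a median of 2.71 over the CENPs, running from 1.52 for Cenpc1 to 11.2 for Cenpf. It had a median of 2.02 over the transport kinesins, running from 1.35 to 10.7. As mean log2 CPM, the mitotic kinesins stood at 4.34, 3.86 and 4.23 in the untreated primary tumors and at 3.99, 4.61 and 4.45 in the primary STV tumors. Recurrent DMAG tumors gave 4.83, 4.74 and 4.7, and recurrent DMAG+STV tumors gave 3.64 and 2.62. The glands gave 4 and 2.87, so the pair of glands lay about as far apart as the pair of recurrent DMAG+STV tumors. Transport kinesins lay between 5.01 and 5.65 in every tumor, with the recurrent DMAG+STV tumors at 5.36 and 5.62.

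**Figure D2:**
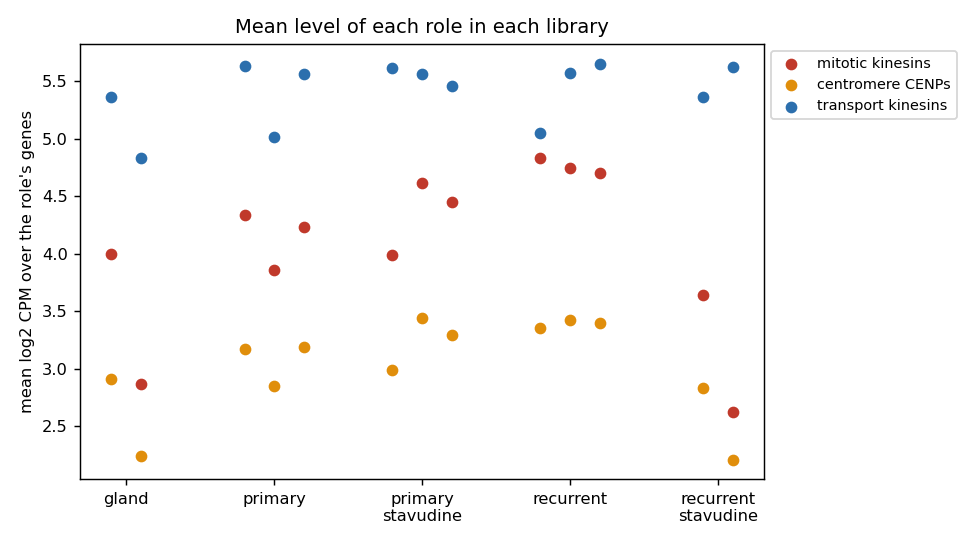
Mean log2 CPM over the mitotic kinesins, over the centromere CENPs and over the transport kinesins, 1 point per class and library, by group. Both recurrent DMAG+STV tumors (3.64 and 2.62) lie below all 3 recurrent DMAG tumors (4.7 to 4.83) for the mitotic kinesins, and the transport kinesins of these groups overlap.

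Per kilobase of exon, the scale on which genes can be compared with each other, the mitotic kinesins were less abundant than the common transport motors. The median level over the 11 tumors was 3.22 CPM per kb over the 12 mitotic kinesins (1.01 to 6.1) and 2.67 over the 15 CENPs (0.677 to 7). It was 8.5 over the 13 transport kinesins, reaching 40.8 for Kif1c, which moves vesicles and focal adhesion components. Kif5b, the ubiquitous heavy chain of conventional kinesin, stood at 24.3 CPM per kb. Cenpb, which binds a repeat in centromeric DNA and is dispensable for centromeres, stood at 18.9, above every other Cenp gene. Cenpf (7) and Cenpc1 (6.34) headed the centromere class, and Cenpe (6.1) and Kif11 (5.24) the mitotic one. Exon overlap with a gene on the opposite strand reached 10% or more of exon bases in 9 of the 54 tested members, among them Kif20a (29.3%), Kif4 (15.1%), Cenpu (26.7%) and Kif3c (40.7%). The kit keeps strand, but whether the counting used it is not given in the sources used here, so levels of these 9 are uncertain to that extent.

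The likeness between members was given by Pearson's r between a gene's log2 CPM and the mean of the mitotic kinesins over the 11 tumors, for a member with itself left out of the mean. It is a description of libraries that share groups and depth. The median r was 0.98 over the mitotic kinesins, 0.83 over the CENPs and −0.05 over the transport kinesins, and without the recurrent DMAG+STV tumors (9 tumors) it was 0.93, 0.74 and 0.07. Among the CENPs, Cenpf and Cenpq reached 0.96 and Cenpo and Cenpt stood at 0.19 and 0.1. Among the remaining members, Kif24, a kinesin of the mother centriole, reached 0.75, and Kif2a, a microtubule depolymerase related to Kif2c, stood at −0.85. The 5 genes outside the set with the highest r over 11 tumors were Prc1 (0.996), Ncapg (0.994), Ccna2 (0.992), Birc5 (0.992) and Cdk1 (0.992). They encode a crosslinker of midzone microtubules, a condensin subunit, cyclin A2, survivin and the mitotic kinase, in that order. Over the 9 tumors these 5 stood at 0.994, 0.984, 0.975, 0.972 and 0.966.

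Against the mammary glands, the mitotic kinesins stood higher in tumors without passing the test, and 3 members outside the mitotic and transport classes fell. Differences were tested with edgeR's quasi-likelihood test and called at a Benjamini-Hochberg adjusted p under 0.05 over all genes tested. With the 4 tumor groups weighted equally against the glands, 3 of 54 members were called, all lower in tumors, against 10.4% of 17135 genes called in either direction and 8.81% called lower. Kif21b, a kinesin that limits microtubule growth, had 78.8 and 54 CPM in the glands and 17.2, 24.1 and 36.1 CPM as the lowest, median and highest of 11 tumors. It fell by 1.43 on the log2 scale (SE 0.27, adjusted p = 0.0109), and every tumor lay below both glands, which was so of all 3 genes called and of 7.37% of all genes. Kif26a, an atypical kinesin without motor activity, fell by 1.66 (SE 0.37, adjusted p = 0.0199), from 6.32 and 9.6 CPM in the glands to 1.44 to 5.65 in the tumors. Kif19a, which shortens cilia, fell by 2.11 (SE 0.37, adjusted p = 0.00779), from 1.31 and 2.96 CPM to 0.23 to 0.942. Without gland 2 only Kif21b of these was called, and without gland 1 only Kif19a and Kif26a of them were.

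Adipocyte markers lay lower in the tumors along with these 3 genes. They summed to 282 and 225 CPM in the glands and 0.0844 to 45 in the tumors, where 4 of 5, Adipoq, Plin1, Lep and Cidec, were at 0 in primary STV tumor 3. B and T lymphocyte markers stood apart in gland 1, with a sum of 174 CPM against 5.92 in gland 2 and 1.83 to 4.68 in the tumors, with Ms4a1 at 0 in recurrent DMAG tumor 2 and recurrent DMAG+STV tumor 1. Markers of motile cilia, the setting in which Kif19a works, overlapped between the groups, with sums of 4.06 and 2.64 CPM in the glands and 1.92 to 6.92 in the tumors. The part of these cells in the results was not tested. In these bulk samples, fewer cells of a type and less RNA per cell cannot be told apart.

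The mitotic kinesins had a median log2 difference of 0.6 in tumors against glands, and all 12 were higher, against a median of −0.02 over all genes tested and 48.4% of them higher. None was called by edgeR, limma voom or DESeq2, and 0 had an unadjusted p under 0.05 by edgeR. Kif11, which slides antiparallel microtubules apart to separate the spindle poles, had 29.5 and 13 CPM in the glands and 12.8, 39.1 and 58.4 as the lowest, median and highest tumor. Its log2 difference was 0.75 (SE 0.34, adjusted p = 0.17), and Kif2c, the centromeric microtubule depolymerase, had 1.00 (SE 0.51, adjusted p = 0.219). For Kif20a the difference was 0.60 (SE 0.28, adjusted p = 0.177) and for Kif23 0.68 (SE 0.44, adjusted p = 0.319). Cenpe and Kif18b had 0.62 (SE 0.35) and 0.22 (SE 0.21). All 12 of these genes overlapped between tumors and glands. The CENPs had a median of 0.51, with 14 of 15 higher, 4 at an unadjusted p under 0.05 against 10.6% of all genes in that direction, and 0 called. Cenpm, a subunit of the inner kinetochore, had the smallest p at a log2 difference of 1.00 (SE 0.32, adjusted p = 0.074), Cenpc1 had 0.34 (SE 0.14, adjusted p = 0.123), Cenpk 0.76 (SE 0.32, adjusted p = 0.145), and Cenpf and Cenpa had 0.80 and 0.63. DESeq2 called 8 members, Kif19a, Kif21b, Kif26a, Kif1a and Cenpv lower and Cenpm, Kif3a and Kif3c higher, against 18.9% of all genes. Leaving out gland 1 raised the count of members called by edgeR to 23, with 7 mitotic kinesins among them, as the share of all genes called rose to 24.2%. It moved the median of the mitotic class to 1.36, while without gland 2 that median was 0.22 with 1 member and 3.01% of genes called.

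The transport kinesins gave 0 calls by edgeR in tumors against glands, with 2 higher and 2 lower at an unadjusted p under 0.05, against 10.6% and 19% of genes, and a median log2 difference of 0.26. Kif3a, a motor subunit of intraflagellar transport, had 34.7 and 25.8 CPM in the glands and 36.7 to 49.4 in the tumors, a log2 difference of 0.44 (SE 0.14, adjusted p = 0.0737). Its tumors all lay above its glands, which was so for 4.14% of genes. Kif1a, which carries synaptic vesicle precursors in neurons, had 7.49 and 3.43 CPM in the glands and 0.886 to 6.28 in the tumors, a difference of −1.26 (SE 0.39, adjusted p = 0.0645). For Kif5b the difference was −0.34 (SE 0.22, adjusted p = 0.31), with gland 2 at 344 CPM and the other 12 libraries between 167 and 249. Without gland 2 it was 0.28. Kif3c, a kinesin-2 subunit, had 1.11 (SE 0.41, adjusted p = 0.108), and Kif1b and Kif1c had −0.23 (SE 0.23) and 0.26 (SE 0.21).

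Untreated primary tumors alone against the glands gave 0 calls among the members by edgeR and by limma voom and 5 by DESeq2, against 2.11% of genes by edgeR, 2.41% by limma voom and 13.7% by DESeq2. At an unadjusted p under 0.05, 7 members were higher and 4 lower, against 9.3% and 15.2% of genes. Kif20a and Kif3a were among those 7, at 0.78 (SE 0.32, adjusted p = 0.172) and 0.40 (SE 0.17, adjusted p = 0.179). Kif21b (−1.38, SE 0.36, adjusted p = 0.0662), Kif26a (−1.83, SE 0.49, adjusted p = 0.0686) and Kif19a (−1.64, SE 0.50, adjusted p = 0.0921) lay lower with no overlap between the groups, which was so for 20.4% of genes. Medians were 0.61 over the mitotic kinesins, 0.46 over the CENPs and 0.4 over the transport kinesins. Among the mitotic kinesins, Kif14 had 0.79 (SE 0.43), Kif11 0.67 (SE 0.39), Cenpe 0.73 (SE 0.41), Kif23 0.78 (SE 0.50), Kif2c 0.93 (SE 0.58) and Kif18b 0.37 (SE 0.25), with adjusted p of 0.274 to 0.366. Cenpm was the 1 CENP at an unadjusted p under 0.05 (1.21, SE 0.37, adjusted p = 0.0921), and Cenpa, Cenpc1 and Cenpf had 0.96 (SE 0.44), 0.34 (SE 0.16) and 1.09 (SE 0.57). Of the transport kinesins, Kif1a had −1.53 (SE 0.50, adjusted p = 0.107), Kif16b 0.57 (SE 0.23, adjusted p = 0.168) and Kif3c 1.13 (SE 0.46, adjusted p = 0.17). Kif5b, Kif1b and Kif1c had −0.39 (SE 0.26), −0.33 (SE 0.28) and 0.21 (SE 0.24). This comparison shares its glands with the one before, so the values stand side by side and do not support each other.

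STV in primary tumors went with no called difference in any member. edgeR and limma voom called 0 of 54 members and 0% of 16870 genes, and DESeq2 called 0 members and 0.101% of genes. By edgeR at an unadjusted p under 0.05, 0 members were higher and 2 lower, against 1.32% and 2.44% of genes. Those 2 were Kif19a (−1.30, SE 0.45, adjusted p = 1) and Kif21a (−0.46, SE 0.18, adjusted p = 1). Mitotic kinesins had a median log2 difference of 0.17, and the groups overlapped in all 12 (no overlap was seen in 5% of genes in the higher and 5.83% in the lower direction). Kif11 had 39.1, 26.5 and 35.8 CPM in the untreated primary tumors and 34.8, 50.7 and 45.3 with STV, a difference of 0.35 (95% interval −0.26 to 0.97). Kif20a, which carries the Aurora B complex to the midzone, had 22.3, 20.4 and 22.7 CPM against 18, 25.7 and 22.5, a difference of 0.00 (−0.46 to 0.46). Kif15 and Kif18a both had 0.35 (SE 0.25 and 0.30), Kif2c 0.41 (SE 0.41), Kif23 0.16 (SE 0.30), Cenpe 0.15 (SE 0.30) and Kif18b 0.04 (SE 0.20). CENPs and transport kinesins had medians of 0.17 and 0.12. Cenpl had 0.45 (SE 0.26), Cenpp 0.33 (SE 0.19), Cenpc1 0.18 (SE 0.11), Cenpf 0.21 (SE 0.38) and Cenpa −0.07 (SE 0.25). Kif1a had −0.80 (SE 0.43), Kif13a −0.22 (SE 0.12) and Kif16b −0.28 (SE 0.19), while Kif5b, Kif3a, Kif1b and Kif1c lay between 0.12 and 0.26. Kif26b had −2.65 (SE 1.19). All of these had an adjusted p of 1.

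**Figure D3:**
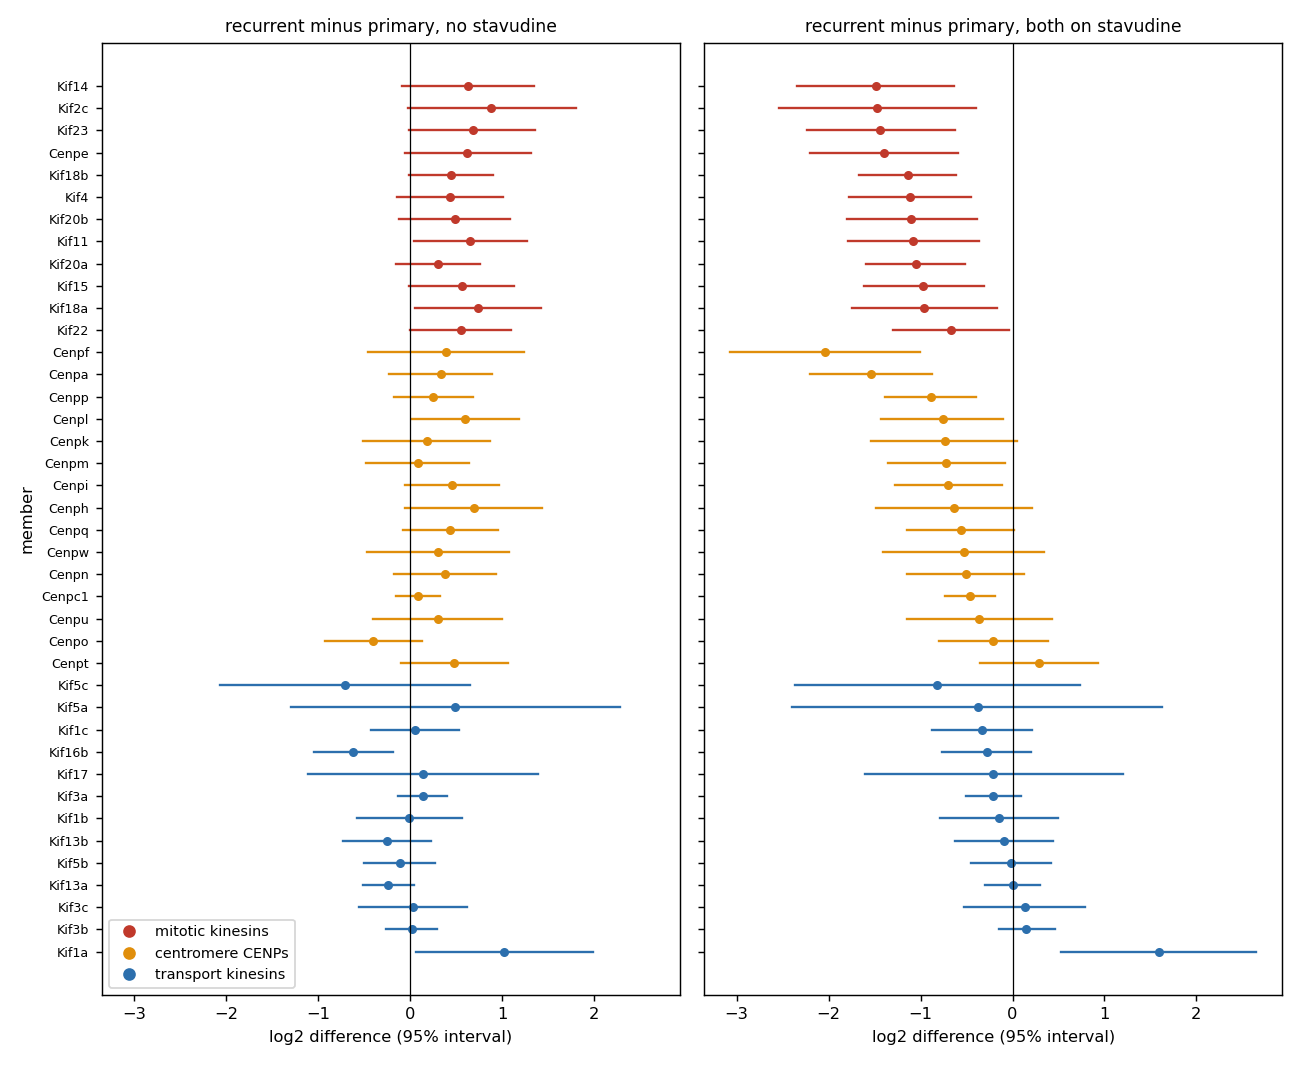
Log2 difference of recurrent minus primary tumors for each mitotic kinesin, CENP and transport kinesin, without STV on the left and with STV on the right, with edgeR's 95% intervals as bars. All 12 mitotic kinesins lie above 0 on the left and below 0 on the right, the transport kinesins scatter around 0 on both sides, and no member passed an adjusted p of 0.05 on either side.

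In recurrent tumors without STV the mitotic kinesins stood somewhat above untreated primary tumors, with no overlap of the groups in any of the 12 and with none past the test. edgeR, limma voom and DESeq2 called 0 members, and 0% of 16870 genes were called by edgeR. By edgeR at an unadjusted p under 0.05, 4 members were higher and 2 lower, against 4.79% and 4.9% of genes. All 12 mitotic kinesins had every recurrent DMAG tumor above every untreated primary tumor, which was so for 7.65% of genes, with a median log2 difference of 0.59 against −0.01 over all genes. Kif11 had 39.1, 26.5 and 35.8 CPM in the untreated primary tumors and 58.4, 53.6 and 49.1 in the recurrent DMAG tumors. Its difference was 0.65 (SE 0.27, adjusted p = 0.509). Kif2c went from 14.3, 6.07 and 11.5 to 19.1, 19 and 21.4 CPM, a difference of 0.88 (SE 0.41, adjusted p = 0.51). Kif18a, which damps chromosome movements at the metaphase plate, had 0.74 (SE 0.31, adjusted p = 0.509). Kif23 had 0.68 (SE 0.30), Cenpe 0.62 (SE 0.31), Kif18b 0.44 (SE 0.20), Kif22 0.55 (SE 0.25) and Kif20a 0.30 (SE 0.21), with adjusted p of 0.51 to 0.574.

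CENPs followed at a smaller size in this comparison. They had a median of 0.33, 14 of 15 were higher, against 49.4% of all genes, and 7 had groups that did not overlap, against 7.65% of genes higher in that way. Cenpl, which binds the CENP-A nucleosome together with Cenpn, had 7.73, 5.12 and 6.11 CPM in the untreated primary tumors and 9.03, 11.3 and 8.84 in the recurrent DMAG tumors (0.60, SE 0.26, adjusted p = 0.51). For Cenpa the difference was 0.33 (SE 0.25), for Cenpf 0.39 (SE 0.38), for Cenph 0.69 (SE 0.33) and for Cenpi 0.45 (SE 0.23). Transport kinesins had a median of 0.02. Kif16b, a motor of early endosomes, had 159, 180 and 231 CPM and then 92.4, 133 and 150 (−0.62, SE 0.19, unadjusted p = 0.00962, adjusted p = 0.509), the smallest p among the members. Kif1a had 2.17, 2.16 and 1.36 CPM and then 6.28, 2.7 and 2.73 (1.02, SE 0.43, adjusted p = 0.509). Kif13a had −0.24 (SE 0.12), and Kif5b, Kif3a, Kif1b and Kif1c had −0.11, 0.14, −0.01 and 0.05. Outside these classes Kif21a had −0.31 (SE 0.18) and Kif24 0.37 (SE 0.25).

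Recurrence with STV went the other way for the mitotic class. In recurrent DMAG+STV against primary STV tumors, all 12 mitotic kinesins were lower, against 48.2% of all genes, and all 12 had an unadjusted p under 0.05, against 4.64% of genes lower at that level, with a median log2 difference of −1.11 (−1.49 to −0.67) against 0.01 over all genes. None passed the adjusted test in edgeR (0% of 16870 genes did, adjusted p = 0.288 to 0.479 over the 12) or in limma voom. DESeq2 called 11 members lower, 7 mitotic kinesins and 4 CENPs, and 1.96% of all genes. In 11 of the 12 both recurrent DMAG+STV tumors lay below all 3 primary STV tumors, which was so for 17.9% of genes, and Kif22 was the exception.

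Kif18b, which works with Kif2c at the ends of astral microtubules, had 9.21, 11.3 and 12.8 CPM in the primary STV tumors and 5.85 and 4.2 in the recurrent DMAG+STV tumors. Its difference of −1.14 (SE 0.23, adjusted p = 0.288) had the smallest p of the mitotic class. Kif23, the motor of the centralspindlin complex that bundles the midzone, had 12.7, 23.7 and 23.9 CPM and then 9.8 and 5.01. Its difference was −1.44 (SE 0.36, adjusted p = 0.313), or 2.71-fold lower. Both recurrent tumors were below all primary ones, with primary STV tumor 1 the nearest to them. Kif14, which is needed for cytokinesis, had 13, 21 and 19.8 CPM and then 9.23 and 3.53 (−1.49, SE 0.38, adjusted p = 0.313). Cenpe, the kinetochore motor that brings chromosomes to the metaphase plate, had 41.8, 64.6 and 52.6 CPM and then 28.7 and 11.5 (−1.40, SE 0.36, adjusted p = 0.313). Kif11 had −1.08 (SE 0.32, adjusted p = 0.341), Kif20a −1.05 (SE 0.24, adjusted p = 0.295) and Kif2c −1.47 (SE 0.48, adjusted p = 0.401). Kif22, a motor on chromosome arms, had 11.1, 14.4 and 16.3 CPM and then 11.5 and 5.99, so that the groups overlapped (−0.67, SE 0.28, adjusted p = 0.479).

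The CENPs split in the same comparison. Their median was −0.64, 7 of 15 were lower at an unadjusted p under 0.05, against 4.64% of genes, and 11 lay lower with no overlap between the groups, against 17.9% of genes. Cenpa, the histone H3 variant that marks the centromere, had 14.3, 21.9 and 20.1 CPM in the primary STV tumors and 8.72 and 4.14 in the recurrent DMAG+STV tumors (−1.54, SE 0.30, adjusted p = 0.252). Cenpf, a large protein of the outer kinetochore made in G2, had 83, 152 and 104 CPM and then 41.4 and 13.6 (−2.04, SE 0.46, adjusted p = 0.295), or 4.11-fold lower. It was the widest difference among the CENPs, with the 2 recurrent tumors themselves far apart. Cenpp had −0.89 (SE 0.22, adjusted p = 0.313). Cenpc1, which ties the centromere to the outer kinetochore, had 35.7, 40.9 and 38.2 CPM and then 28.3 and 26.9 (−0.46, SE 0.12, adjusted p = 0.318). Cenpt, which recruits the outer kinetochore along a separate path, had 7.64, 9.05 and 10.4 CPM and then 10.9 and 11 (0.29, SE 0.29, adjusted p = 0.719), and Cenpo had −0.21 (SE 0.26).

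Among the transport kinesins 9 of 13 were lower in recurrent DMAG+STV tumors, at a median of −0.15. At an unadjusted p under 0.05, 0 were lower and 1 was higher, against 4.64% and 5.42% of genes. The groups did not overlap in 4 that were lower and 1 that was higher, against 17.9% and 17.4% of genes. Kif5b had 248, 248 and 173 CPM in the primary STV tumors and 191 and 249 in the recurrent DMAG+STV tumors (−0.02, 95% interval −0.45 to 0.42). Kif3a had −0.21 (−0.51 to 0.09), Kif1b −0.15 (−0.79 to 0.49) and Kif1c −0.33 (−0.88 to 0.21). The 1 higher was Kif1a, at 1.4, 1 and 0.886 CPM and then 2.37 and 4.24 (1.59, SE 0.47, adjusted p = 0.346). Kif26b, another kinesin without known motor activity, had 0.921, 1.02 and 0.253 CPM and then 7.19 and 7.71 (3.35, SE 1.28, adjusted p = 0.461), and the cilia kinesins Kif19a and Kif7 had 0.90 (SE 0.49) and 0.64 (SE 0.36). Untreated primary tumor 2 (11.2 CPM) and recurrent DMAG tumor 1 (17.9 CPM) exceeded both of these Kif26b values while the other 4 tumors without STV had 0.742 to 3.57.

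With STV in recurrent tumors the mitotic kinesins stood lower as well. In recurrent DMAG+STV against recurrent DMAG tumors, all 12 were lower, against 50.6% of genes, with no overlap between the groups, which was so for 10.5% of genes, and all 12 had an unadjusted p under 0.05, against 4.38% of genes lower at that level. Their median log2 difference was −1.37 (−2.01 to −1.17) against 0 over all genes. edgeR's adjusted p ran from 0.166 to 0.336 over the 12 and 0% of genes passed, limma voom called 0, and DESeq2 called 16 members lower, all 12 mitotic kinesins and 4 CENPs, and 1.58% of all genes. This comparison shares its recurrent DMAG+STV tumors with the last, so the values are given side by side only.

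Kif20a had 27.1, 27.2 and 27.3 CPM in the recurrent DMAG tumors and 13.6 and 7.6 with STV, a difference of −1.35 (SE 0.24, adjusted p = 0.166). The 3 recurrent DMAG tumors were closer to each other than any other group was for this gene (27.2 ± 0.0942 CPM, SD, n = 3, against 21.8 ± 1.23 in untreated primary tumors, n = 3). Kif18b had 13, 16.3 and 15 CPM and then 5.85 and 4.2 (−1.55, SE 0.24, adjusted p = 0.166). Kif23 had 32.7, 28.1 and 25.8 and then 9.8 and 5.01 (−1.96, SE 0.37, adjusted p = 0.186), or 3.88-fold lower. In Kif18b and Kif23 the higher of the 2 DMAG+STV tumors was below the lowest tumor of any other tumor group. The same held for Kif4, Kif14, Kif15, Kif20a and Cenpe, and for some CENPs, Cenpa and Cenpf among them. It did not hold for Kif2c, Kif11, Kif18a, Kif20b and Kif22. The share of all genes with this trait is not given here. Kif11 had 58.4, 53.6 and 49.1 CPM and then 28.4 and 12.8 (−1.38, SE 0.32, adjusted p = 0.269). Kif2c had 19.1, 19 and 21.4 and then 7.55 and 2.73 (−1.94, SE 0.49, adjusted p = 0.313), and Cenpe −1.87 (SE 0.37, adjusted p = 0.211). Kif14 had the widest difference of the class, −2.01 (SE 0.39, adjusted p = 0.205). Kif4 and Kif22, which bind chromosome arms, had −1.36 (SE 0.30) and −1.22 (SE 0.29). Kif15, which can stand in for Kif11 in holding the spindle poles apart, had −1.17 (SE 0.29), Kif18a −1.35 (SE 0.36) and Kif20b, which acts in cytokinesis, −1.32 (SE 0.32).

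Of the CENPs, 9 of 15 had an unadjusted p under 0.05, all lower, against 4.38% of genes. In 11 the groups did not overlap, against 10.5% of genes lower in that way, and the median was −0.82. Cenpa had 25.1, 25.2 and 24.2 CPM and then 8.72 and 4.14 (−1.94, SE 0.30, adjusted p = 0.166). Cenpf had 116, 143 and 126 and then 41.4 and 13.6 (−2.22, SE 0.46, adjusted p = 0.242), or 4.65-fold lower. Cenpi had −0.98 (SE 0.26, adjusted p = 0.359). Cenpo and Cenpt had −0.01 and −0.15, with 95% intervals of −0.59 to 0.58 and −0.80 to 0.50. The 13 transport kinesins lay between −0.23 and 0.27 with a median of 0.02, and 0 had an unadjusted p under 0.05, against 3.46% of genes higher and 4.38% lower. For Kif5b the interval was −0.19 to 0.67, for Kif3a −0.53 to 0.07, for Kif1b −0.52 to 0.76 and for Kif1c −0.69 to 0.40. Kif13b had the highest value of the class, 0.27 (SE 0.24).

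**Figure D4:**
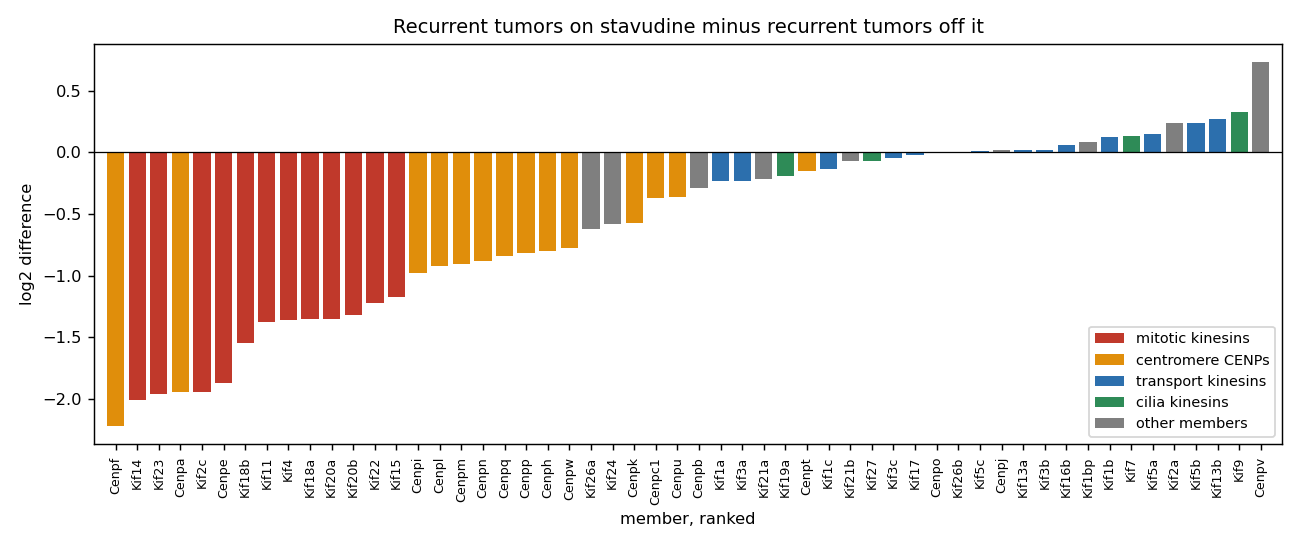
Bars give the log2 difference of recurrent DMAG+STV minus recurrent DMAG tumors for the 54 tested members, ranked and colored by class, without error bars (SEs of the named members stand in the text). The mitotic kinesins with Cenpf and Cenpa take the low end, from −2.22 to −1.17, the transport kinesins lie within −0.23 to 0.27, and none passed an adjusted p of 0.05.

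The size of these differences turned on recurrent DMAG+STV tumor 2. Without it the median of the mitotic kinesins was −0.71 against primary STV tumors and −0.99 against recurrent DMAG tumors, with 0 members called by edgeR. Without recurrent DMAG+STV tumor 1, when tumor 2 stands alone and is assumed to vary as the other groups do, edgeR called 6 members lower against primary STV tumors (0.574% of genes) and 11 against recurrent DMAG tumors (0.809% of genes). Recurrent DMAG+STV tumor 1, which had 12.3 CPM of skeletal muscle markers and 2040 CPM of luminal markers, had 28.4 CPM of Kif11 and 8.72 of Cenpa, below every recurrent DMAG tumor in both genes. Of the luminal markers, Epcam stood at 743 and 402 CPM in the recurrent DMAG+STV tumors and 874 to 1240 in the other tumors. In recurrent DMAG+STV tumor 1, Krt8 (342 CPM), Krt18 (509) and Krt19 (0.391) lay within the range of the other tumors, and Cdh1 (447) lay above it. Myeloid markers summed to 363 and 249 CPM in the recurrent DMAG+STV tumors, 516 in recurrent DMAG tumor 1 and 113 to 182 in the other tumors. Fibroblast markers summed to 903 and 1150 CPM, 3270 in recurrent DMAG tumor 1 and 179 to 595 in the rest. Recurrent DMAG tumor 1, the richest in both, had mitotic kinesins at 4.83 mean log2 CPM, the highest of any library. The part of these cells in the result was not tested.

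In 18 members, 11 mitotic kinesins and 7 CENPs, the recurrent tumors lay wholly above the primary ones without STV and wholly below them with it, which was so for 2.04% of genes. The difference between the recurrence effects with and without STV was tested as an interaction over the 4 tumor groups. All 12 mitotic kinesins had an unadjusted p under 0.05 in the lower direction, against 4.01% of genes, with a median of −1.64 on the log2 scale against 0.03 over all genes. None passed in edgeR (adjusted p = 0.435 to 0.485, 0% of genes) or in limma voom, and DESeq2 called 15 members, 11 of them mitotic kinesins and 4 CENPs, and 1.12% of genes. Kif18b had −1.58 (SE 0.31), Kif23 −2.11 (SE 0.47), Cenpa −1.87 (SE 0.38), Cenpf −2.43 (SE 0.59) and Kif2c −2.35 (SE 0.63). Kif20a had −1.36 (SE 0.31), Kif11 −1.73 (SE 0.42) and Cenpe −2.02 (SE 0.47). CENPs had a median of −0.93, with 9 of 15 lower at an unadjusted p under 0.05, against the same 4.01% of genes, and Cenpp at −1.15 (SE 0.29). Transport kinesins had a median of 0.1 and 0 at that level (3.83% of genes were higher at it), with Kif5b at 0.10 (SE 0.26), Kif3a at −0.35 (SE 0.18), Kif13a at 0.24 (SE 0.18), Kif1b at −0.14 (SE 0.38) and Kif1c at −0.38 (SE 0.32). Of the remaining members Cenpv had 1.29 (SE 0.56, adjusted p = 0.625), Kif19a 1.12 (SE 0.65) and Kif24 −0.80 (SE 0.38).

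Partners of these motors and centromere proteins from lists chosen by function gave values of the same order. In recurrent DMAG+STV against recurrent DMAG tumors, 27 kinetochore partners had a median log2 difference of −1.17, with 22 lower at an unadjusted p under 0.05, against 4.38% of genes, and 0 called by edgeR. Of 13 spindle and midzone partners, 12 were lower at that level with a median of −1.47, against the same 4.38% of genes. Prc1, the midzone crosslinker that Kif4 and Kif14 bind, had −1.70, and Anln, the anillin of the cleavage furrow, −1.52 (SE 0.27, adjusted p = 0.166). Mad2l1, of the spindle checkpoint, had −1.28 (SE 0.22, adjusted p = 0.166). Mis12, a subunit of the outer kinetochore, had 0.07 (SE 0.14). The 13 partners of transport kinesins, such as kinesin light chains and dynactin, had a median of 0.06 and 0 at an unadjusted p under 0.05, with Klc1 at 0.17 (SE 0.13) and Dctn1 at 0.06 (SE 0.11). In recurrent DMAG+STV against primary STV tumors the medians were −0.91, −1.16 and 0.11 for these lists, and in recurrent DMAG against untreated primary tumors 0.5, 0.55 and −0.03. Of 5 reference genes of cycling cells, Mki67, Top2a, Ccnb1, Ccna2 and Cdk1, all 5 were lower at an unadjusted p under 0.05 with STV in recurrent tumors (4.38% of genes were), with a median of −1.41, close to the −1.37 of the mitotic kinesins.

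**Figure D5:**
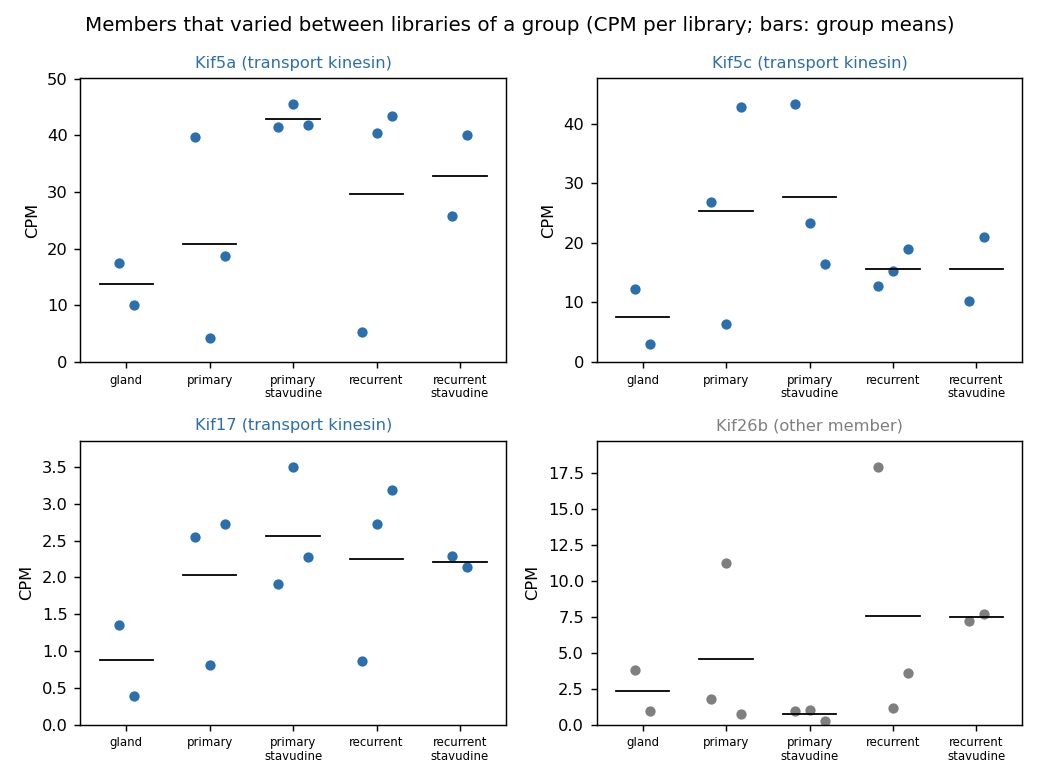
CPM of Kif5a, Kif5c, Kif17 and Kif26b in every library by group, with group means as bars. Kif5a has 4.24 CPM in untreated primary tumor 2 and 5.23 in recurrent DMAG tumor 1 against 18.7 to 45.5 in the other 9 tumors, and Kif26b has 11.2 and 17.9 in the same 2 tumors.

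Members outside the 3 main classes gave 0 calls by edgeR in the comparisons between tumor groups. Among the cilia kinesins, Kif7, which acts in Hedgehog signaling, ran from 2.5 to 8.19 CPM over the 11 tumors, Kif9 from 2.34 to 7.83 and Kif27 from 0.677 to 1.34. With STV in recurrent tumors their log2 differences were 0.13 (SE 0.37), 0.33 (SE 0.44) and −0.07 (SE 0.40). Cenpj, which carries a Cenp name but builds centrioles, ran from 18.2 to 30.2 CPM and had 0.02 (SE 0.20) in that comparison, and Cenpb had −0.29 (SE 0.16). Kif24 had −0.58 (SE 0.29, adjusted p = 0.7) and Kif2a 0.24 (SE 0.13, adjusted p = 0.728), so that the depolymerase Kif2c and its relative Kif2a lay on opposite sides of 0. Cenpv had 3.4, 7.19 and 4.03 CPM in untreated primary tumors and 1.64, 2.88 and 2.94 in recurrent DMAG tumors (−0.99, SE 0.38, adjusted p = 0.509).

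A few members varied most within groups. Kif5a, a heavy chain of conventional kinesin best known from neurons, had 39.7, 4.24 and 18.7 CPM in the untreated primary tumors, 41.5, 45.5 and 41.9 in the primary STV tumors, 5.23, 40.4 and 43.4 in recurrent DMAG tumors, and 25.7 and 40 with STV after recurrence. Untreated primary tumor 2 and recurrent DMAG tumor 1 thus stood apart from the other 9. Kif5c, its neuronal relative, had 6.38 CPM in untreated primary tumor 2 and 10.3 to 43.3 in the other tumors. Kif17, a homodimeric kinesin-2, had 0.815 and 0.857 CPM in the same 2 tumors and 1.91 to 3.5 in the rest. The 6 markers of neurons and Schwann cells summed to 4.58 to 11.8 CPM in the tumors, with Snap25 at 0 in 10 of 11, and their part was not tested. An alternative added after seeing the data left out untreated primary tumor 2 and recurrent DMAG tumor 1. With it edgeR called 7 of 54 members in tumors against glands, with Kif5a among them, beside 16.9% of all genes. Between tumor groups it called 0 members. The share of all genes called there was 0.649% in recurrence with STV, 0.0541% with STV in recurrent tumors and 0% in the other comparisons. The tumors left out had the lowest Kif5a of the 11, so its call cannot be told apart from that choice.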

How the data were processed

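RNA was sequenced from 13 libraries in 5 groups taken from the labels. The authors made stranded, rRNA-depleted libraries, demultiplexed them with bcl2fastq 2.20, aligned them to mm10 with STAR and deposited raw gene counts from featureCounts (Subread 1.6.2). The strand setting and the handling of reads with several matches are not given in the sources used here. From these counts, genes were filtered with filterByExpr and scaled by TMM, and group means were fitted with edgeR 4.0.16 (robust quasi-likelihood, R 4.3.3), over 13 libraries (17135 genes) for comparisons with glands and over the 11 tumors (16870 genes) for the rest, with Benjamini-Hochberg adjustment over all genes tested and a threshold of 0.05. Libraries of the other groups thus share in the estimate of spread. CPM used a prior count of 2 on the log2 scale. The steps were run on simulated counts with 200 changed genes and a spread between libraries set below that of these data. That run therefore does not tell which changes can be found at the real spread.

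The members, classes and lists were chosen with earlier results of these data known. In each comparison the text names 12 members set in advance of these fits (Kif11, Kif18b, Kif20a, Kif23, Kif2c, Cenpa, Cenpe, Cenpf, Kif5b, Kif3a, Kif1b and Kif1c), every member called, and the 3 with the smallest p among the mitotic kinesins, the CENPs, the transport kinesins and the remaining members. Other members named were chosen after their values were seen. Cenps and Cenpx were not found under those symbols.

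Alternatives were DESeq2 1.42.0, which the study used, its size factors, limma 3.58.1 voom, no filter on low counts, a replicate block, milk and muscle genes removed, only the libraries compared, members of at least 1 CPM, and each library left out in turn. Promoter letters came from RefSeq, coordinates from GENCODE.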

Additional observations from a re-analysis of the deposited data

Results flagged for a closer look

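For 18 members every recurrent DMAG tumor lay above every untreated primary tumor while both recurrent DMAG+STV tumors lay below every primary STV tumor, which was so for 344 of 16870 genes tested (2.04%). The effects of recurrence with and without STV are here compared by the interaction term of edgeR, and 0 of the 18 passed, with adjusted p of 0.435 to 0.62. The interaction, recurrence with STV minus recurrence without it on the log2 scale, was −2.43 for Cenpf, −2.35 for Kif2c, −2.11 for Kif14 and for Kif23, −2.02 for Cenpe, −1.87 for Cenpa, −1.73 for Kif11 and −1.7 for Kif18a. It was −1.58 for Kif18b and for Kif20b, −1.55 for Kif4, −1.53 for Kif15 and −1.36 for Kif20a. Among the inner kinetochore subunits it was −1.37 for Cenpl, −1.32 for Cenph, −1.15 for Cenpi, −1 for Cenpq and −0.89 for Cenpn. Thus 11 of the 12 mitotic kinesins and 7 of the 15 CENPs were in this pattern, and no transport kinesin was.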

How the results depend on the processing

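The numbers of members called moved with the test and with single libraries. DESeq2 called 5 in untreated primary tumors against glands, 8 in all tumors against glands, 11 in recurrence with STV, 16 with STV in recurrent tumors and 15 in the interaction, where edgeR called 0, 3, 0, 0 and 0. In all tumors against glands, a replicate block in edgeR gave 0 calls (adjusted p = 0.0576 for Kif21b, 0.05 for Kif19a and 0.059 for Kif26a). The share of all genes called fell with it, from 10.4% to 2.17%. Leaving out untreated primary tumor 2 and recurrent DMAG tumor 1 together gave 7 calls, beside 16.9% of all genes. Deviations from group means correlated at −0.3 to 0.22 over 15 pairs with the same replicate number and at −0.37 to 0.37 over 30 pairs with different numbers. With 2 or 3 libraries per group, the deviations within a group are tied to each other. This check therefore neither shows nor excludes a pairing by replicate number. The block moved the medians of the mitotic kinesins to 0.67, 0.68, 0.20, 0.60, −1.14, −1.41 and −1.68, in the order of the comparisons in the report. Under the alternatives other than leaving out a library, the medians of the mitotic kinesins and the CENPs kept their sign and those of all 3 classes moved by less than the spread between replicates, while the transport medians near 0 crossed it in 4 comparisons between tumor groups.

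With each library left out in turn, members called ranged from 0 to 15 in untreated tumors against glands and 1 to 23 in all tumors against glands. The upper ends came without gland 1, where 19.2% and 24.2% of all genes were called, and the 1 without gland 2, where 3.01% were. The ranges were 0 to 6 in recurrence with STV, 0 to 11 with STV in recurrent tumors and 0 to 8 in the interaction, with the upper ends without recurrent DMAG+STV tumor 1 and 0.574%, 0.809% and 0.442% of genes called there. The median of the mitotic kinesins ranged from 0.29 to 1.4 and from 0.22 to 1.36 against glands, 0.03 to 0.38 with STV in primary tumors, 0.5 to 0.68 in recurrence without STV, −1.73 to −0.71 in recurrence with STV, −1.97 to −0.99 with STV in recurrent tumors and −2.26 to −1.32 in the interaction. For the CENPs these ranges were 0.21 to 0.78, 0.22 to 0.9, 0.06 to 0.28, 0.21 to 0.39, −1.02 to −0.44, −1.1 to −0.6 and −1.34 to −0.67. For the transport kinesins they were 0.11 to 0.42, 0.22 to 0.33, −0.03 to 0.14, −0.12 to 0.15, −0.23 to −0.08, −0.13 to 0.18 and −0.23 to 0.11.

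The sign of Kif5b against glands, −0.39 with untreated and −0.34 with all tumors, turned to 0.24 and 0.28 without gland 2. The other signs that turned were of smaller differences. With STV in primary tumors, Kif18b was −0.03 without the 2 tumors named above, and Kif20a was −0.01 by limma voom and −0.02 without those tumors. Leaving out 1 library there spanned −0.19 to 0.11 for Cenpa, −0.01 to 0.31 for Cenpe, −0.05 to 0.41 for Cenpf, −0.07 to 0.18 for Kif18b and −0.11 to 0.15 for Kif20a. Kif1b in recurrence without STV was 0.01 with DESeq2 size factors, 0.01 by DESeq2, 0.03 by limma voom and 0.00 both with no filter and without milk and muscle genes, and with STV in recurrent tumors it was −0.04 without those tumors. Leaving out 1 library, Kif1b spanned −0.23 to 0.22 in recurrence without STV, −0.45 to 0.08 with STV, −0.18 to 0.35 with STV in recurrent tumors and −0.46 to 0.07 in the interaction. Kif1c spanned −0.12 to 0.27 and −0.35 to 0.03 in recurrence without STV and with STV in recurrent tumors. Kif5b spanned −0.75 to 0.24 and −0.7 to 0.28 against glands, −0.23 to 0.15 in recurrence with STV and −0.14 to 0.24 in the interaction. The number of mitotic kinesins higher at an unadjusted p under 0.05 in recurrence without STV was 2 by edgeR, beside 4.79% of all genes. It was 7 by DESeq2, 9 by limma voom and 11 with only the libraries compared, and 0 by edgeR without untreated primary tumor 2. Under these other settings the share of all genes is not given here. Their counts are thus not set against all genes and show only that the number moved. With 2 libraries in the recurrent DMAG+STV group and in the glands, an arm left with 1 library is assumed to vary like the others. The causes of these moves were not tested.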
